A study of Mus musculus with 7 samples.

Results

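Genes of G2, mitosis and the spindle were followed on arrays of brown fat RNA. The mice were male, 3 days old and of the C57BL/6J strain, with 1 group lacking Gyk (KO), the gene of glycerol kinase, and a wild-type (WT) control group. The labels give no further detail of the allele, and do not say whether the 4 KO samples (replicates 1 to 4) and the 3 wild-type samples (replicates 1, 3 and 4) came from separate animals, and any p-value then covers the spread of these samples alone, which may be technical. Each sample had been hybridised to 1 array. The members were 44 genes named for their part in cell division, of 18193 genes with a probe set of 1 gene symbol, and each was read by its brightest probe set, by mean signal over the 7 arrays. A probe set was found for 43 of them, and Ccnb1 is not analysed here.

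Mitosis is driven by cyclin A and cyclin B bound to the kinase Cdk1. Condensins compact the chromosomes, kinetochores attach them to the spindle, and a checkpoint holds back the anaphase-promoting complex until every attachment is made. The central spindle then places the furrow that divides the cell. Most of these genes are transcribed mainly in dividing cells, in late S phase, G2 and mitosis, and brown fat of newborn mice still holds dividing precursor and vascular cells. In RNA of whole tissue, fewer dividing cells and less RNA per dividing cell cannot be told apart.

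The transcription of many G2 and mitosis genes is known to pass through the cell cycle genes homology region, a short promoter element often written TTTGAA that the DREAM and B-Myb-MuvB complexes bind, and through CCAAT boxes bound by NF-Y. Promoter windows from RefSeq (GRCm38.p6), from 250 bases before to 50 bases after the annotated start, were matched by symbol for 38 of the 44 members. TTTGAA, searched on both strands, was present in at least 1 window of 28 of these 38 (73.7%), against 5466 of 27025 genes with a window (20.2%). In 25 of the 38 (65.8%) a match began within 50 bases of the start, against 5.72% of all genes. CCAAT on either strand was present in 29 of the 38 (76.3%) against 41.1% of all genes, and both motifs were present in 25 (65.8%) against 7.97%. Neither motif contains the other, and a match describes letters in the window and not a bound site. The 4 windows printed here are for the members with the smallest p in the comparison below that held TTTGAA; the capitals mark each match, with 1 on each strand in Top2a.
Prc1, chr7:80294201-80294500, plus strand: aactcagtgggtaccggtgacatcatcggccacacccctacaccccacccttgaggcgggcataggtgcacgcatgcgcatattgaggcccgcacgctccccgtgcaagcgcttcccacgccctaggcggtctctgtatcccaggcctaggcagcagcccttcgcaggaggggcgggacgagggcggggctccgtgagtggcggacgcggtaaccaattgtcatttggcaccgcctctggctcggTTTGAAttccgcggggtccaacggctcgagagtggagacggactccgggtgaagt
Top2a, chr11:99024140-99024439, minus strand: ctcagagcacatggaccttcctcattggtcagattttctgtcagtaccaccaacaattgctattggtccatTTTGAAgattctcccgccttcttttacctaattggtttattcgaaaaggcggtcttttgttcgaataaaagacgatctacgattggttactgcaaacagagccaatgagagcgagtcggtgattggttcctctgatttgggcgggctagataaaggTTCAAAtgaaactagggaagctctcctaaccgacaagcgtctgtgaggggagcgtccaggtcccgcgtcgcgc
Cdca8, chr4:124936868-124937167, minus strand: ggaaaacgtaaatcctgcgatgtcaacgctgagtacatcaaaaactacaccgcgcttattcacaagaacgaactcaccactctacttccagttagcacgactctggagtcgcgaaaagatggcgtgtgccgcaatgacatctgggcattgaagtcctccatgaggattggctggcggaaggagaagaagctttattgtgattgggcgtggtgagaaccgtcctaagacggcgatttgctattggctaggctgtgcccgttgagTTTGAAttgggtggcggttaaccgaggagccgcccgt
Kif23, chr9:61946750-61947049, minus strand: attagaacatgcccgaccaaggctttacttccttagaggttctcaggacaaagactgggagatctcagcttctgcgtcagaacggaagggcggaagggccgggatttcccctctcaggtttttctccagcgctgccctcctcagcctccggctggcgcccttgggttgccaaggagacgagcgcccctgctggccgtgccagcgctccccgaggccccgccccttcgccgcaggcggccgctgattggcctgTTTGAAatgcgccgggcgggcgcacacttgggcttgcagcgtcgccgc
In the Prc1 window printed the match starts 5 bases before the annotated start, and in Kif23 and Cdca8 it starts at bases 3 and 14 after it. Of the tested members, the 25 with a match had a median log2 difference between KO and wild type of -0.67 (-1.45 to 0.01), and the 6 with a window and no match one of -0.56 (-1.79 to 0.06), so the ranges overlapped. Cdk1, described below, held 2 matches.

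One array stood apart before any result. Xist, which is transcribed from an inactive X and so mainly in females, read 893 on the array labelled KO replicate 2 and at most 13.1 on the other 6 arrays (1 of its 3 probe sets; the other 2 were also highest there), although all samples were labelled male. Genes of the Y chromosome were read on this array as well. Eif2s3y was at 1252 against 1210 to 1566 on the other 6 arrays (brighter of 2 probe sets), Kdm5d at 325 against 386 to 471 (brightest of 3), and Uty at 475 against 697 to 854 and at 224 against 464 to 759 (brightest 2 of 4). The array thus held both Xist and Y-linked RNA, and which animals or RNA it came from was not tested. On the first principal component this array lay at 13.8, between the wild-type arrays (23 to 33.3) and KO replicates 1, 3 and 4 (-35.7 to -33.4), and its correlation with wild-type replicate 1 (0.975) was the highest of any pair. On the second, KO replicates 1 and 2 and wild-type replicate 1, whose accession numbers form 1 run, lay apart from the other 4 arrays, whose numbers form another; these are called deposit runs here, and the labels name no batch. The median signal per array was 131.5 to 154, and the small number of arrays limits the precision. The targeted gene itself is not analysed here. All 13 measured brown fat markers passed the filter on low signal, with signals of at least 470.9 on every array.

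Nearly all mitosis genes had lower estimates in KO, though few passed a test alone. Of the 43 members, 36 passed the filter (mean over all arrays at or above the 40th percentile of all probe sets) and were tested, and 34 of these 36 had a lower estimate in KO, against 49.9% of the 27022 probe sets tested. The median log2 difference over the 36 was -0.59, against 0 over all tested probe sets. Differences of -0.5 or below were found for 23 of the 36, against 5.87% of all. Only Prc1 passed by itself (limma, Benjamini-Hochberg adjusted p under 0.05 over all probe sets), 1 lower and 0 higher of 36, against 0.644% of all probe sets called lower and 0.951% called higher. At an unadjusted p under 0.05, 25 members were lower and 0 higher. Of the 27022 probe sets, 8.55% were lower at that threshold, and 4465 were under it in either direction. Without KO replicate 2, 14 of the 36 fell and 0 rose, against 4.21% of all probe sets lower and 3.14% higher, the median was -0.66, and 34 of 36 estimates were below 0, against 49.3% of all.

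The single call with all arrays did not hold when any array other than KO replicate 2 was left out, or without the mean-variance trend of the test (0 lower in each). The calls over all probe sets fell in these settings too, from 174 lower to between 0 and 10 with another array left out and to 3 without the trend. Without the filter it was lost too (0 lower of the members, against 0.0799% of all probe sets). With KO replicate 2 left out and no trend 12 members fell, against 563 of all 27022 probe sets, in an alternative chosen after seeing the data.

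**Figure D1:**
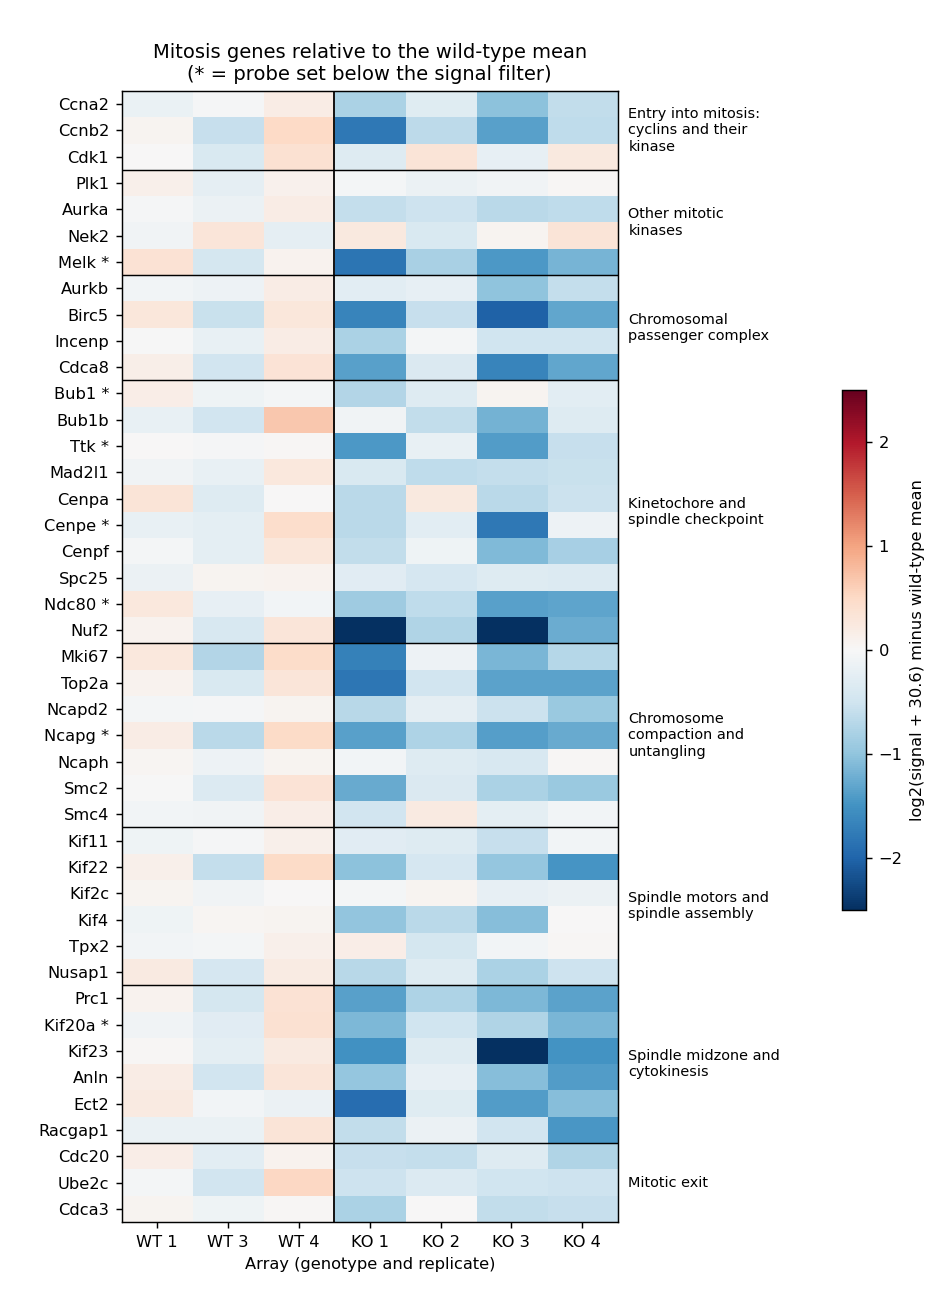
Heat map of 43 mitosis genes (rows, grouped by role) on 7 arrays (columns), coloured by log2(signal + 30.6) minus the wild-type mean of the gene; an asterisk marks the 7 genes below the signal filter. KO replicates 1, 3 and 4 are mostly blue (lower), and KO replicate 2 is paler, as is its list mean of -0.31 against -0.86 to -0.65 on the other KO arrays.

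The KO arrays differed among themselves. The mean over the 36 tested members, relative to wild type, was -0.81, -0.31, -0.86 and -0.65 (log2) on KO replicates 1 to 4 and 0.03, -0.25 and 0.22 on wild-type replicates 1, 3 and 4. KO replicate 2 lay only a little below wild-type replicate 3. The lowest wild-type signal was undercut by 36, 28, 39 and 32 of the 43 members on KO replicates 1 to 4. Wild type itself was spread: replicate 4 held the highest of the 7 signals for 30 of 43 members, and replicate 3 read below the wild-type mean for 40 of 43. These counts are not independent, since the members share the arrays. The 4 KO arrays lay wholly below the 3 wild-type arrays for 15 of the 36 tested members, against 7.25% of all tested probe sets, and for 0 they lay wholly above, against 7.48%. Of all 43, filter aside, they lay wholly below for 20, against 5.58% of all probe sets.

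The genes of the spindle midzone and of cytokinesis, which build the central spindle and the contractile ring, were the lowest of the roles. Their median log2 difference was -1.14 over 5 tested members. Of these, 1 was called lower with all arrays, against 0.644% of all probe sets, and 4 without KO replicate 2, against 4.21%. Prc1, which bundles the antiparallel microtubules of the midzone, read 437, 295 and 535 in wild type and 141, 228, 173 and 145 in KO. Every KO array lay below every wild-type array. Its mean was 422 ± 121 (SD, n = 3) in wild type and 172 ± 40.2 (n = 4) in KO, so that Prc1 fell 2.21-fold on the log2(signal + 30.6) scale, which understates the change of dim probe sets (log2 difference -1.14 ± 0.22, SE; adjusted p = 0.0375). Kif23, the motor subunit of centralspindlin, read 384, 313 and 446 in wild type and 113, 297, 42 and 114 in KO. The KO arrays were again all lower, though KO replicate 2 came close to the lowest wild-type array. The log2 difference of Kif23 was -1.45 ± 0.40 (adjusted p = 0.0982) and it fell 3.56-fold without KO replicate 2 (adjusted p = 0.00561). Ect2, the exchange factor that activates RhoA at the furrow, read 194, 153 and 145 in wild type and 21.2, 125, 42.6 and 62.3 in KO, with no overlap. It did not pass with all arrays (adjusted p = 0.122) and fell 2.73-fold without KO replicate 2 (adjusted p = 0.0177). The KO mean of Ect2, 62.8, was under the filter cut (about 88.9 as a signal). Ect2 therefore passed the filter only through its wild-type signals (mean 164). Anln, which encodes the ring scaffold anillin, read 296, 177 and 324 in wild type and 118, 219, 108 and 79.6 in KO, so that KO replicate 2 lay within the wild-type range. It fell 2.2-fold without that array (adjusted p = 0.0247). Racgap1, the other centralspindlin subunit, read 305, 306 and 442 in wild type and 214, 309.9, 241 and 107 in KO and did not pass with (adjusted p = 0.263) or without KO replicate 2 (adjusted p = 0.0908). Kif20a, a motor of the midzone, was below the signal filter, at 66.3 to 122.8 in wild type and 23.1 to 53 in KO.

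**Figure D2:**
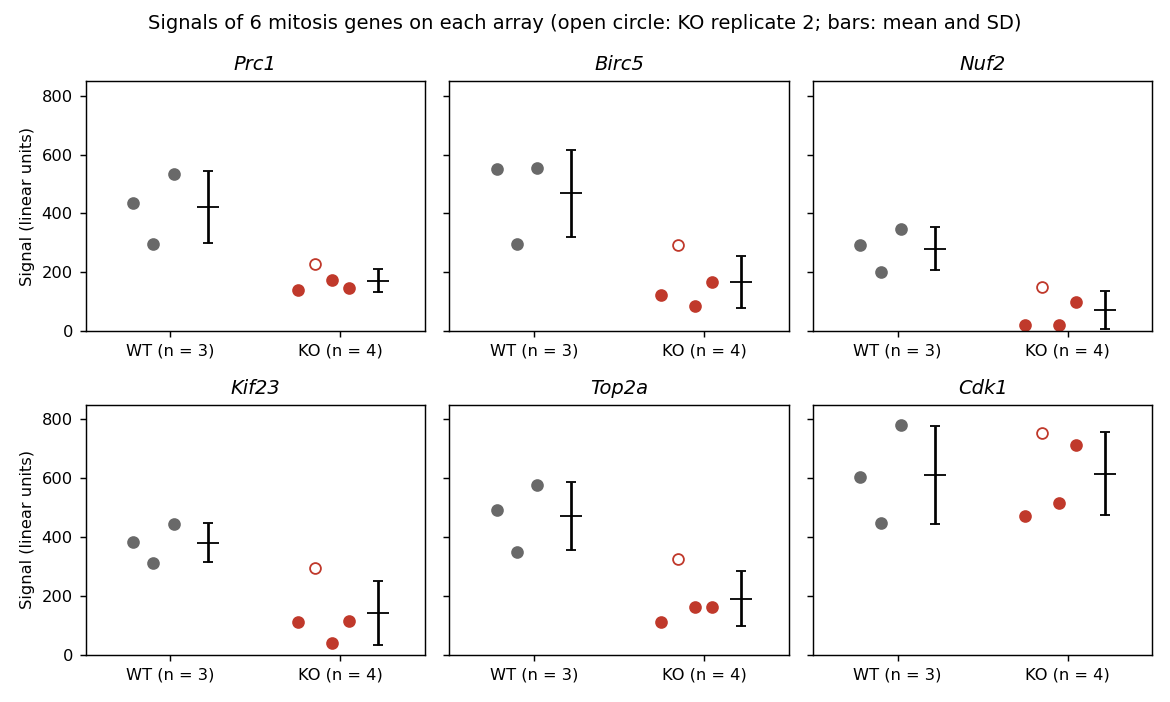
Signals (linear units) of 6 members on each array, with wild type (n = 3) in grey and KO (n = 4) in red; bars are mean and SD and the open circle is KO replicate 2. Prc1, Birc5, Nuf2, Kif23 and Top2a have all KO arrays below all wild-type arrays, with the open circle highest of the KO arrays, while the Cdk1 groups overlap.

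The chromosomal passenger complex, which corrects faulty attachments and then moves to the midzone, followed, with a median of -0.84 over 4 tested members. Birc5, which encodes survivin, the subunit that docks on chromatin, read 553, 296 and 555 in wild type and 123, 293, 87.2 and 166 in KO. The highest KO array, replicate 2, was just under the lowest wild-type array. The log2 difference was -1.39 ± 0.33 (adjusted p = 0.0655). Birc5 passed with the deposit run as a covariate (adjusted p = 0.0443) and without KO replicate 2, where it fell 3.15-fold (adjusted p = 0.00725). Cdca8, which encodes borealin, read 427, 266 and 493 in wild type and 130.3, 291, 101 and 137 in KO. KO replicate 2 lay within wild type and the other KO arrays below it. It did not pass with all arrays (adjusted p = 0.085) and fell 2.72-fold without KO replicate 2 (adjusted p = 0.00701). The kinase of the complex, Aurkb, read 179, 170.2 and 219 in wild type and 152, 159.8, 78.6 and 114 in KO, without overlap but with a smaller log2 difference of -0.52 ± 0.23. Incenp, its scaffold, had one of -0.46 ± 0.20, and neither passed with or without KO replicate 2.

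Among the genes of chromosome compaction the tested members ran from lower to nearly level. Top2a, the topoisomerase that untangles sister chromatids, read 494, 349.5 and 576 in wild type and 110.3, 326, 164 and 164 in KO, with no overlap (log2 difference -1.24 ± 0.29, adjusted p = 0.0613). It fell 2.83-fold without KO replicate 2 (adjusted p = 0.0043). Smc2, the ATPase shared by both condensins, read 462, 359 and 594 in wild type and 176, 354, 253 and 228 in KO and fell 1.99-fold without that array (adjusted p = 0.0193). Its partner Smc4 read 902, 887 and 1073 in wild type and 671, 1124, 803 and 909.6 in KO, and the groups overlapped (log2 difference -0.14 ± 0.17). Of the other condensin I subunits, Ncapd2 was at 361 ± 16.1 against 233 ± 55.5 in KO, without overlap, and passed without KO replicate 2 (log2 difference -0.72 ± 0.17, adjusted p = 0.0289), whereas Ncaph differed by -0.19 ± 0.14 and did not pass. The dimmer tested probe set of Ncapd2 differed by -0.1 ± 0.22, overlapped, and did not pass with or without KO replicate 2. The differences between these subunits were not tested. Mki67, the proliferation marker Ki-67, which coats mitotic chromosomes, read 579, 275 and 669 in wild type and 127, 436, 199.7 and 280.0 in KO. Wild-type replicate 3 lay among the KO arrays, and Mki67 did not pass with all arrays (adjusted p = 0.243) or without KO replicate 2 (adjusted p = 0.0612). Ncapg was below the filter, at 24.9 to 92.7 in wild type and 3.6 to 21.5 in KO.

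Kinetochore and checkpoint genes had a median of -0.54 over 6 tested members of 10. Nuf2, of the Ndc80 complex that grips the microtubule, read 294, 202 and 347 in wild type and 20.8, 149.9, 20.1 and 98.9 in KO. It had the largest estimate of all tested members (-1.79 ± 0.44, adjusted p = 0.0711), with KO replicates 1 and 3 far below the rest. Without KO replicate 2 Nuf2 fell 4.38-fold (adjusted p = 0.00981). Its KO mean of 72.4 was under the filter cut, about 88.9 as a signal. It was therefore tested only through its wild-type signals (mean 281). The other 2 members of that complex had smaller signals or smaller estimates. Ndc80 was below the filter, at 67.7 to 104.9 in wild type and 13.8 to 42.1 in KO without overlap, and Spc25 read 256, 301 and 308 in wild type and 229.8, 208, 222 and 220.1 in KO, without overlap, a log2 difference of -0.34 ± 0.15 (adjusted p = 0.29). Mad2l1, the checkpoint protein that binds Cdc20, read 360.0, 335 and 468 in wild type and 286, 237, 244 and 253 in KO. No KO array reached wild type, and KO replicate 2 was the lowest of all. Mad2l1 did not pass with (adjusted p = 0.126) or without it (adjusted p = 0.106). Cenpf, an outer kinetochore protein, differed by -0.67 ± 0.24 and fell 1.8-fold without KO replicate 2 (adjusted p = 0.0401). Cenpa, the histone of centromeres, read 869.8, 542 and 692 in wild type and 422, 820.3, 421 and 464 in KO, so that KO replicate 2 lay with wild type and the other 3 KO arrays below it, and it did not pass without that array (adjusted p = 0.0574). The checkpoint kinase gene Bub1b overlapped between groups (log2 difference -0.55 ± 0.33). The checkpoint kinase genes Ttk and Bub1 and the motor gene Cenpe were below the filter. Ttk read 102.1 to 108.6 in wild type and 19.5 to 89.3 in KO, without overlap, whereas Bub1 (77.9 to 100.2 against 40.4 to 93) and Cenpe (88.6 to 161.1 against 10.3 to 98.5) overlapped. The dimmer probe set of Bub1, also below the filter, read 73.6 to 110.5 in wild type and 2.3 to 60.6 in KO, without overlap.

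The cyclins that bring about entry into mitosis were lower by estimate, and their kinase was not. Ccna2, cyclin A2, read 423, 464 and 549.5 in wild type and 262, 383, 218 and 302 in KO. All KO arrays were below wild type (log2 difference -0.68 ± 0.19, adjusted p = 0.103), and without KO replicate 2 it fell 1.75-fold (adjusted p = 0.0202). Ccnb2, cyclin B2, read 358, 218 and 488 in wild type and 75.9, 203, 113 and 208 in KO, again without overlap, and did not pass with (adjusted p = 0.119) or without KO replicate 2 (adjusted p = 0.0504). Cdk1 read 605, 448 and 781 in wild type and 472, 756, 517 and 715 in KO on its single probe set. The groups overlapped fully, and the log2 difference was 0.01 ± 0.21 (adjusted p = 0.985), with a sign that turned in 7 of the alternatives. Its 2 TTTGAA matches begin 71 and 15 bases before the start.

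Of the other mitotic kinases, Aurka, which matures the spindle poles, read 189.5, 172 and 227 in wild type and 119.8, 128, 110.3 and 115 in KO. The KO arrays were close to each other and all below wild type, yet Aurka did not pass with (log2 difference -0.60 ± 0.19, adjusted p = 0.135) or without KO replicate 2 (adjusted p = 0.0906). Plk1, a kinase of mitotic entry and of the spindle poles, read 160.4, 119 and 159 in wild type and 138, 128, 135 and 149.8 in KO, within the wild-type range on every KO array (log2 difference -0.06 ± 0.19). Nek2, of centrosome separation, was the other member with a higher estimate (0.06 ± 0.23). Its signals of 147, 204 and 131 in wild type and 192, 115, 166 and 205 in KO overlapped, and the estimate turned below 0 without KO replicate 4 or wild-type replicate 4. Melk was below the filter, at 56 to 120.7 in wild type and 2.5 to 37.1 in KO without overlap.

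Spindle motors and assembly factors had a median of -0.45 over 6 tested members. On the brightest probe sets, 0 of the 6 had KO arrays wholly below wild type, against 7.25% of all tested probe sets. A dimmer tested probe set of Kif11 did (133.2 to 144 in wild type, 77.2 to 98.5 in KO), as did one of Kif2c and one of Tpx2. Another dimmer tested probe set of Kif2c and of Tpx2 overlapped. Kif22, a motor that pushes chromosome arms toward the equator, read 630.0, 367 and 809 in wild type and 267, 421, 280.0 and 188 in KO and fell 2.22-fold without KO replicate 2 (adjusted p = 0.0284). Nusap1, a microtubule bundling protein, read 386, 236 and 384 in wild type and 191, 258, 177 and 219 in KO, with KO replicate 2 again the highest KO array (adjusted p = 0.187). Kif4, the chromokinesin that works with Prc1, read 279, 314 and 319 in wild type and 138, 179.6, 129 and 305 in KO. KO replicate 4 lay with wild type and the other 3 KO arrays below it (log2 difference -0.68 ± 0.25). Kif11, the motor that pushes the poles apart, differed by -0.31 ± 0.21, and Kif2c, a microtubule depolymerase, and Tpx2, the activator of Aurka, by -0.08 ± 0.14 and -0.09 ± 0.16. None of these 5 passed with or without KO replicate 2.

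Cdc20, Ube2c and Cdca3, grouped here under mitotic exit, had a median of -0.49, which is the value of Cdca3, a gene of mitotic entry. Cdc20, the activator of the anaphase-promoting complex, read 528, 384 and 496 in wild type and 304, 297, 368 and 263 in KO, without overlap (log2 difference -0.56 ± 0.17, adjusted p = 0.122). Its second probe set differed more, as given below. Ube2c, the E2 enzyme of that complex, read 436, 318 and 664 in wild type and 309.5, 349, 314 and 308 in KO, and the groups overlapped (log2 difference -0.46 ± 0.21). Cdca3, which promotes the degradation of an inhibitor of mitotic entry, read 356, 309 and 346 in wild type and 183, 337, 209 and 217 in KO. KO replicate 2 lay with wild type, and without it Cdca3 fell 1.57-fold (adjusted p = 0.0369).

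**Figure D3:**
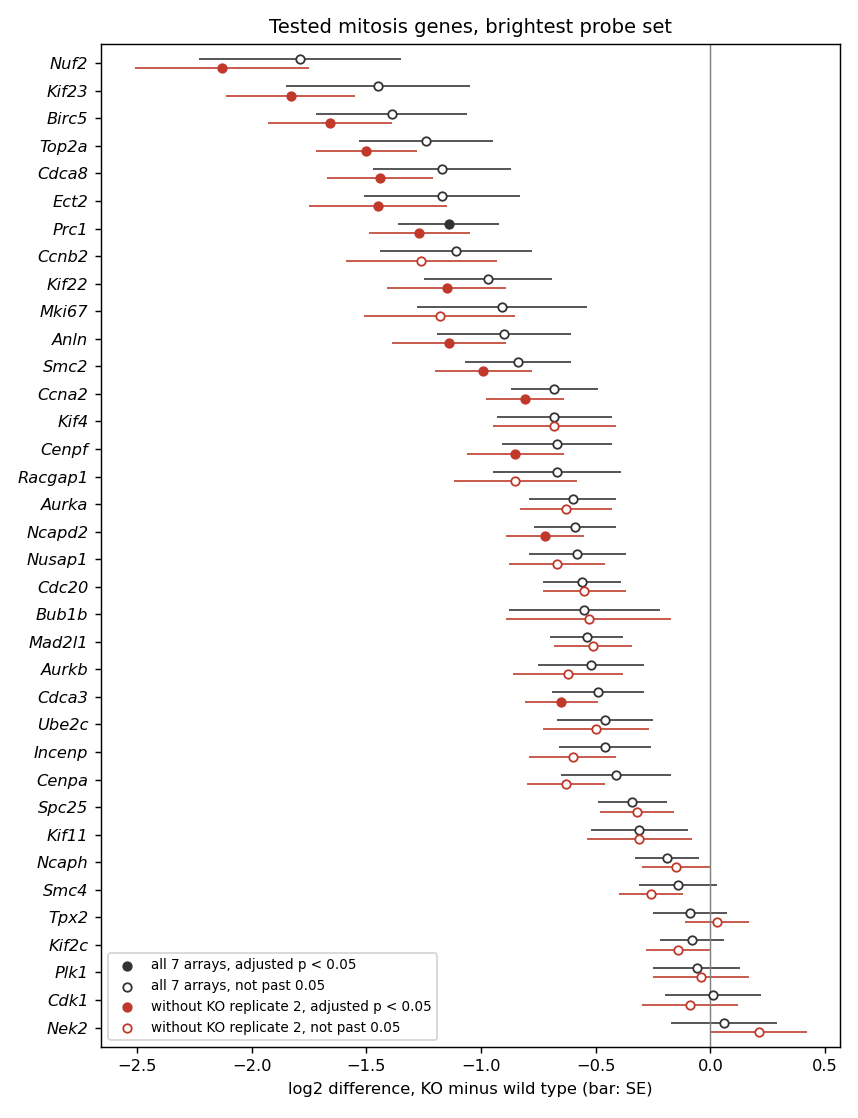
Log2 differences between KO and wild type (x axis, bars are SE) of the 36 tested members, from all 7 arrays (black) and without KO replicate 2 (red); filled points have an adjusted p under 0.05. With all arrays 34 of 36 points lie below 0 and Prc1 alone is filled; without KO replicate 2, 14 are filled.

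Of the 27 tested members with a log2 difference of -0.5 or below without it (8.33% of all probe sets had one), KO replicate 2 lay within or above the wild-type range for 11, between wild type and the other KO arrays for 11, and within or below the other KO arrays for 5. Over all 2252 probe sets with such a difference the shares were 50.1%, 31.8% and 18.1%, against which the members' counts are to be read. Between the deposit runs, the median log2 difference of the members was -0.44 in the first run (KO replicates 1 and 2 against wild-type replicate 1, which has no spread of its own) and -0.71 in the second (2 against 2 arrays). In the second run Top2a (adjusted p = 0.0478) and Kif23 (adjusted p = 0.0403) fell, against 375 of all 27022 probe sets. Prc1 did not pass there (adjusted p = 0.0792). With the run as a covariate 2 members fell, Prc1 and Birc5, against 1.08% of all probe sets.

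Different probe sets of 1 gene did not always give the same value. Of 17 members with more than 1 tested probe set, 6 had estimates on both sides of 0. Top2a is the widest: its second probe set read 103, 83.7 and 94.7 in wild type and 114, 125, 76.4 and 83.4 in KO, a log2 difference of 0.05 ± 0.23 against -1.24 ± 0.29 on the brightest. For Tpx2 the dimmest tested probe set was the lowest. Its 2 brighter probe sets differed by -0.09 ± 0.16 and 0.25 ± 0.20 and another by -0.69 ± 0.22 (adjusted p = 0.151). Cenpf differed by 0.23 ± 0.22 on its second probe set. The other 3 genes with both signs were Kif2c (-0.08 ± 0.14, -0.40 ± 0.19 and 0.04 ± 0.26), Nek2 (0.06 ± 0.23 and -0.28 ± 0.22) and Spc25 (-0.34 ± 0.15 and 0.02 ± 0.21), and none of these passed. Cdc20 differed more on its second probe set (-1.03 ± 0.23, adjusted p = 0.0547), which passed without KO replicate 2 (adjusted p = 0.00904). The second probe set of Ccna2 (-0.76 ± 0.22) passed without it as well (adjusted p = 0.0462). The values of Prc1 were alike on both of its tested probe sets (-1.14 ± 0.22 and -1.14 ± 0.41), though the dimmer did not pass (adjusted p = 0.19). Of the 58 tested probe sets of all members, 1 was called lower with all arrays and 16 without KO replicate 2. In either fit 0 were called higher. Of all probe sets, 0.644% were called lower and 0.951% higher with all arrays. Without KO replicate 2 these shares were 4.21% and 3.14%.

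**Figure D4:**
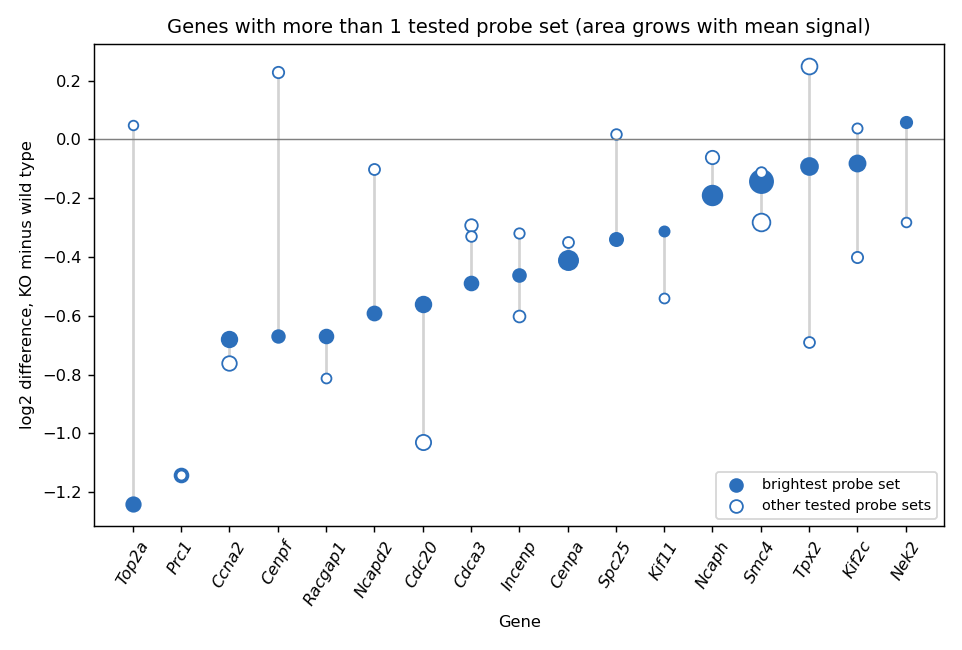
Log2 difference between KO and wild type (y axis) of every tested probe set of the 17 members with more than 1 (x axis), filled for the brightest and open for the others, with an area that grows with mean signal. The probe sets of Top2a, Tpx2 and Cenpf lie furthest apart, and those of Prc1 and Ccna2 close together.

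Further tested genes of mitosis had a smaller median shift. In a list of 68 other genes of mitosis and the spindle, 67 had a probe set and 43 were tested, of which 2 fell and 0 rose (5 fell without KO replicate 2, also Hmmr, Espl1 and Plk4), against 0.644% of all probe sets lower and 0.951% higher with all arrays and 4.21% lower without that array. The median of the tested genes was -0.29 with all arrays and -0.16 without KO replicate 2. The KO arrays lay wholly below wild type for 14 of the 43, against 7.25% of all tested probe sets. Of all 67, filter aside, they did so for 21, against 5.58% of all probe sets. They lay wholly above for 1, Mis12, against 7.48% of all tested probe sets. Cep55, of the last cut between daughter cells, fell 2.16-fold, from 257 ± 49.6 to 102 ± 16.5 (log2 difference -1.11 ± 0.20, adjusted p = 0.0328). Here KO replicate 2, at 119.8, lay close to the other KO arrays (82.2 to 111). Pbk, a mitotic kinase gene, fell 2.47-fold, from 441 ± 75.5 to 169 ± 82.9 (adjusted p = 0.0431). Genes of DNA replication, which is active in the preceding phase, had a median of -0.37 over 36 tested members (-0.31 without KO replicate 2), with 3 lower (0.644% of all probe sets) and 0 higher (0.951%), and 12 lower without KO replicate 2 (4.21%). The 3 were Rrm2, of ribonucleotide reductase (-1.58 ± 0.25, adjusted p = 0.0219), and the helicase subunit genes Mcm2 (-1.20 ± 0.23, adjusted p = 0.0371) and Mcm5 (-1.65 ± 0.35, adjusted p = 0.0462).

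Both remaining lists of cell cycle genes had medians near 0. Of 24 tested genes of the anaphase-promoting complex and cohesin, 0 passed with all arrays, and the median was 0.04. The cohesin release factor gene Wapl and the cohesin subunit gene Rad21 had the smallest p, both with higher estimates (0.71 ± 0.18 and 0.46 ± 0.12). Both rose without KO replicate 2 (adjusted p = 0.00595 and 0.0164), where 3.14% of all probe sets were called higher. Of 22 tested transcription regulators of the cell cycle 0 passed, with a median of -0.04. E2f6, an E2F family repressor, was at 834 ± 47.4 in wild type and 578 ± 75.9 in KO (adjusted p = 0.0927), and Rbl1, which encodes the pocket protein p107, at 317 ± 54 and 181 ± 50.6 (adjusted p = 0.118); Rbl1 fell without KO replicate 2 (adjusted p = 0.0287). Foxm1, the forkhead factor of G2 and mitosis genes, and Mybl2, B-Myb, were named after their values were seen. Foxm1 read 407, 326 and 334 in wild type and 382, 433, 414 and 227 in KO, with groups that overlapped, and Mybl2 differed by -0.23 ± 0.22.

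**Figure D5:**
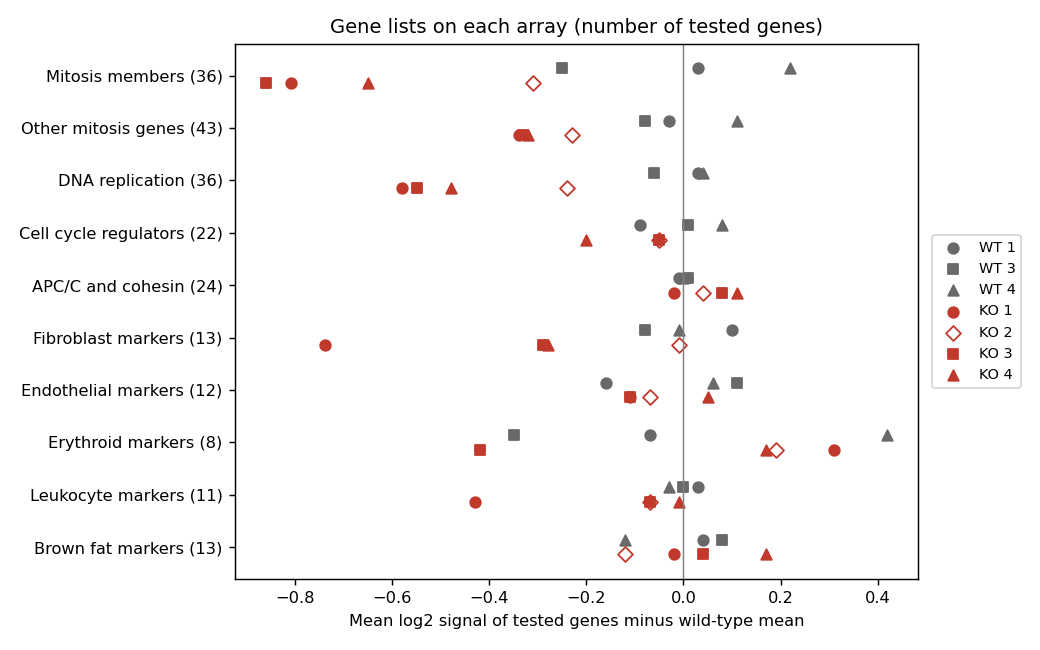
Mean log2 signal of the tested genes of 10 lists on each array, relative to wild type (x axis), with wild type in grey, KO in red and KO replicate 2 as the open diamond; the number of tested genes is in brackets. The mitosis members, the other mitosis genes and the replication genes have all KO arrays below all wild-type arrays; fibroblast markers are lower on KO replicates 1, 3 and 4 (-0.74 to -0.28) and level on KO replicate 2 (-0.01), and erythroid markers spread within both groups.

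Markers of other cells that brown fat holds were read on the same arrays. Fibroblast and preadipocyte markers had a median of -0.29 over 13 tested members, with 0 called with all arrays. Of the 13 estimates 12 were below 0 and 1 above, and those of Pdgfra (-0.06), Pdgfrb (0.16) and Dlk1 (-0.11) were small. Without KO replicate 2 the median was -0.39, and 4 were lower (Cd34, Lum, Fap and Mfap5), against 4.21% of all probe sets. The summed signal of the 13 markers was 87710 to 94780 in wild type and 56630 to 89410 in KO, where KO replicate 2 was the highest. It was also the highest KO array for the mitosis members. Their summed signal was 11800 to 17120 in wild type, 11870 on KO replicate 2 and 8115 to 9338 on KO replicates 1, 3 and 4. Fap, a fibroblast protease gene, read 758, 549 and 803 in wild type and 215, 584, 328 and 298 in KO (adjusted p = 0.0982). The mean of the fibroblast markers relative to wild type was -0.74 on KO replicate 1 and -0.29 on KO replicate 3. For the mitosis members these arrays were nearly level (-0.81 and -0.86). Endothelial markers had a median of -0.07 (0 of 12 passed), with summed signals of 18530 to 22660 in wild type and 18940 to 22730 in KO. Leukocyte markers had one of -0.15 (0 of 11 passed, and Lyz2 rose without KO replicate 2; 11070 to 11440 against 8976 to 14080). Erythroid markers had one of -0.02 (0 of 8 passed; 4526 to 7308 against 4407 to 6650). Their mean was -0.35 on wild-type replicate 3 and 0.42 on wild-type replicate 4, the arrays lowest and highest for mitosis genes among wild type, but 0.31 on KO replicate 1, where mitosis genes were low. Neutrophil markers were higher by estimate (median 0.56, 0 of 7 passed), and Ngp and Lcn2 rose without KO replicate 2. That fit, in which Lyz2 rose as well, called 3.14% of all probe sets higher. Muscle markers had a median of -0.05 (0 of 10 passed). Brown fat markers had one of 0.02 (0 of 13 passed; 171800 to 197800 against 167000 to 212400). No marker of these lists was listed at 0 on any array. The part of these cells in the lower mitosis signals was not tested.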

How the data were processed

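The authors deposited linear signal intensities, 1 per probe set and array, and the submitters' processing notes name GCOS 1.2. How signals were scaled is not given in the sources used; the trimmed mean (2% at each end) was 500.003 on all 7 arrays, and it was kept. Of 45037 probe sets besides controls, 34945 had 1 gene symbol, updated through a RefSeq gene table.

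Signals were taken to log2 after adding 30.6, their 20th percentile. The 27022 probe sets at or above the 40th percentile were fitted with limma 3.58.1 in R 4.3.3 (two-sided, eBayes with its trend option, threshold 0.05 after Benjamini-Hochberg adjustment over all of them). The fit was also run on simulated data with noise drawn separately for each value, without effects shared across an array. No result here rests on it. Members and lists were chosen with earlier results of these data known. Named were members that passed or were higher, at least 2 per role by smallest p, and up to 2 genes per list otherwise; list genes that passed only without KO replicate 2 were named after their values were seen. Alternatives changed scaling, offset, filter, variance model, weights, threshold, probe set, replicate block, deposit run and arrays. Fits without KO replicate 2 and the trend, and in the first deposit run, were chosen after seeing the data. The replicate numbers were not taken as pairs.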

Additional observations from a re-analysis of the deposited data

Results flagged for a closer look

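Within the 4 KO arrays, 3 of 43 members had 1 array far from the others by Dixon's criterion, and chance flags about 1 in 20 groups. In each it was KO replicate 2 that read highest: Cenpa at 820 against 421 to 465 on the other KO arrays, Ube2c at 349 against 308 to 314, and Ncapg, below the signal filter, at 21.5 against 3.6 to 6.3. This is the array with the Xist signal. The cause was not tested.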

How the results depend on the processing

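Of the median log2 difference of the members, -0.59 with all arrays, every alternative run lay between -0.71 and -0.44, and the count of members called higher was 0 throughout. The count called lower, 1 with all arrays, moved. The calls over all probe sets, 174 lower with all arrays, moved as well and are given in brackets. The count of members was 0 with median scaling (77), no filter (36), no mean-variance trend (3), an adjusted p under 0.01 (2) or the first deposit run alone (0), and 0 where every tested probe set had to pass. It was 2 with the deposit run as a covariate (293) or in the second run alone (375), 3 with the filter at the 60th percentile (253 of 18015 tested), 7 at an adjusted p under 0.1 (518), 10 with array weights (682), and 12 without both KO replicate 2 and the trend (563). Leaving out 1 array at a time gave 0 to 14 (0 to 1138), the highest without KO replicate 2. With the replicate number as a block it was 16 (1244), but this fit gives KO replicate 2 a term of its own, which removes it. Deviations of same-numbered arrays correlated at 0.057, 0.149 and 0.105, and each KO array with a wild-type partner correlated best with its own number, a hint from the data only. For single members 14 values turned sign, in 4 members with estimates near 0. Cdk1 (0.01) was at -0.04 with array weights, -0.09 with the replicate block, without KO replicate 2 and without that array and the trend, -0.02 in the first run, -0.06 without KO replicate 4 and -0.18 without wild-type replicate 3 (-0.18 to 0.20 over single arrays left out). Nek2 (0.06) was at -0.02 without KO replicate 4, -0.05 without wild-type replicate 4 (-0.05 to 0.22 over single arrays) and -0.28 on the probe set with the smallest p. Plk1 (-0.06) was at 0.04 in the second run, and Tpx2 (-0.09) at 0.03 with the replicate block, without KO replicate 2 (-0.17 to 0.03 over single arrays) and without that array and the trend. The cause was not tested. Calls without KO replicate 2 rest on 3 against 3 arrays, and 7 members had too low a signal to be tested.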
